A study of Homo sapiens with 6 samples.

Results

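Antisense long noncoding RNAs are transcribed from the strand opposite to another gene, here called the sense gene, and carry its name with the suffix AS and a digit. Some start beside the promoter of the sense gene and run away from it, others overlap its exons or lie inside its introns. Individual antisense RNAs are known to recruit chromatin-modifying complexes to their locus, to change splicing or stability of the sense transcript, or to bind microRNAs and proteins elsewhere in the cell, while for most of them no function has been established. Calcitriol, the hormonal form of vitamin D, binds the vitamin D receptor, a transcription factor that recognizes pairs of short half-sites in DNA.

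The RNAs described here were the antisense genes expressed in CaSki cells, a cervical cancer line with integrated HPV16. The cells had been exposed for 24 h to calcitriol at 10 nM or to the vehicle, 0.1% ethanol. Total RNA was hybridized to 6 Clariom D arrays, 3 for calcitriol and 3 for vehicle. Each array received a pool of RNA that combined replicates of all the independent experiments, so p-values measured the spread between pools, which may be technical. Members were the array features whose only gene symbol ended in -AS and a digit and whose mean log2 signal over the 6 arrays exceeded 6.32, which is the 95th percentile of 612 negative control features. A gene with several features was represented by the brightest. Of 989 antisense genes on the array, 80 (8.09%) met this rule, against 46.8% of protein-coding genes and 17.8% of all 138745 features above the same level. The members were thus chosen by their mean signal, so their brightness is a description and not a finding.

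The arrays were alike in quality. The median signal over all features lay between 4.29 and 4.33 on the calcitriol arrays and between 4.27 and 4.30 on the vehicle arrays, and any pair of arrays correlated at 0.981 to 0.984 across features. CYP24A1, whose enzyme breaks calcitriol down, marked the treatment, with a log2 fold change of 7.60 and an adjusted p of 0.0137 by limma. All 8 measured epithelial markers were above the negative controls, with mean signals of 15.81 to 15.93 on the calcitriol arrays and 15.95 to 16.14 on the vehicle arrays, while 2 of 5 fibroblast, 1 of 4 leukocyte and 0 of 3 endothelial markers were. The 8 exogenous control features, for bacterial and phage sequences, were all dimmer on the calcitriol arrays, by log2 differences of -0.13 to -0.63. Their part in the results was not tested beyond rescaling each array on them.

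No expressed antisense RNA passed the test for calcitriol. In limma with Benjamini-Hochberg adjustment over all features, 0 of the 80 had an adjusted p under 0.05 (their adjusted p-values were 0.915 to 1.00), and CYP24A1 was the only feature that did, 0.000721% of the array. At an unadjusted p under 0.05 by limma, 2 members were lower and 0 higher, which is 2.5% of the members against 5.41% of all features and 6.6% of features above the same level (5.39% lower and 1.21% higher). These were OVCH1-AS1 and HNRNPU-AS1. Where a 1.5-fold change was asked for as well, 1 member was lower and 0 were higher, against 2.86% lower and 0.672% higher among features above the level. The 3 calcitriol pools did not overlap the 3 vehicle pools for 7 members (8.75%), 6 of them lower and 1 higher, against 12.5% of features above the level (9.92% lower and 2.61% higher) and 10.7% of all features. Each of these shares was below that of features above the level. Over all features 5.55% were lower without overlap, a smaller share than the 6 of 80 members. Lower calls at an unadjusted p under 0.05 by limma made up 2.83% of all features, near the 2.5% of members. With a 1.5-fold change as well they made up 1.56% of all features. With 3 pools against 3, an exact permutation test cannot give a p below 0.1.

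The changes were also small in size. Log2 fold changes, calcitriol minus vehicle, ranged from -0.72 to 0.48 with a median of -0.08 and quartiles of -0.21 and 0.09. The median over all features was -0.00 and that over features above the level was -0.09. Of the 80 members, 51 (63.8%) had a negative value, against 50.7% of all features, 66.1% of features above the level and 78.0% of protein-coding genes above it. That lean depended on the scaling, since 41 of 80 were negative after quantile normalization or cyclic loess, 54 after centring each array on its median, and 10 after centring on the exogenous controls, which moved the median of all features to 0.34. The median standard error was 0.21 (0.16 to 0.38). The 95% interval of the change stayed within a fold of 1.5 either way for 25 members and within a fold of 2 for 73, against 31.5% and 85.2% of features above the level. A change of more than a fold of 2 was therefore outside the interval for most members, whereas one of a fold of 1.5 often was not.

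**Figure D1:**
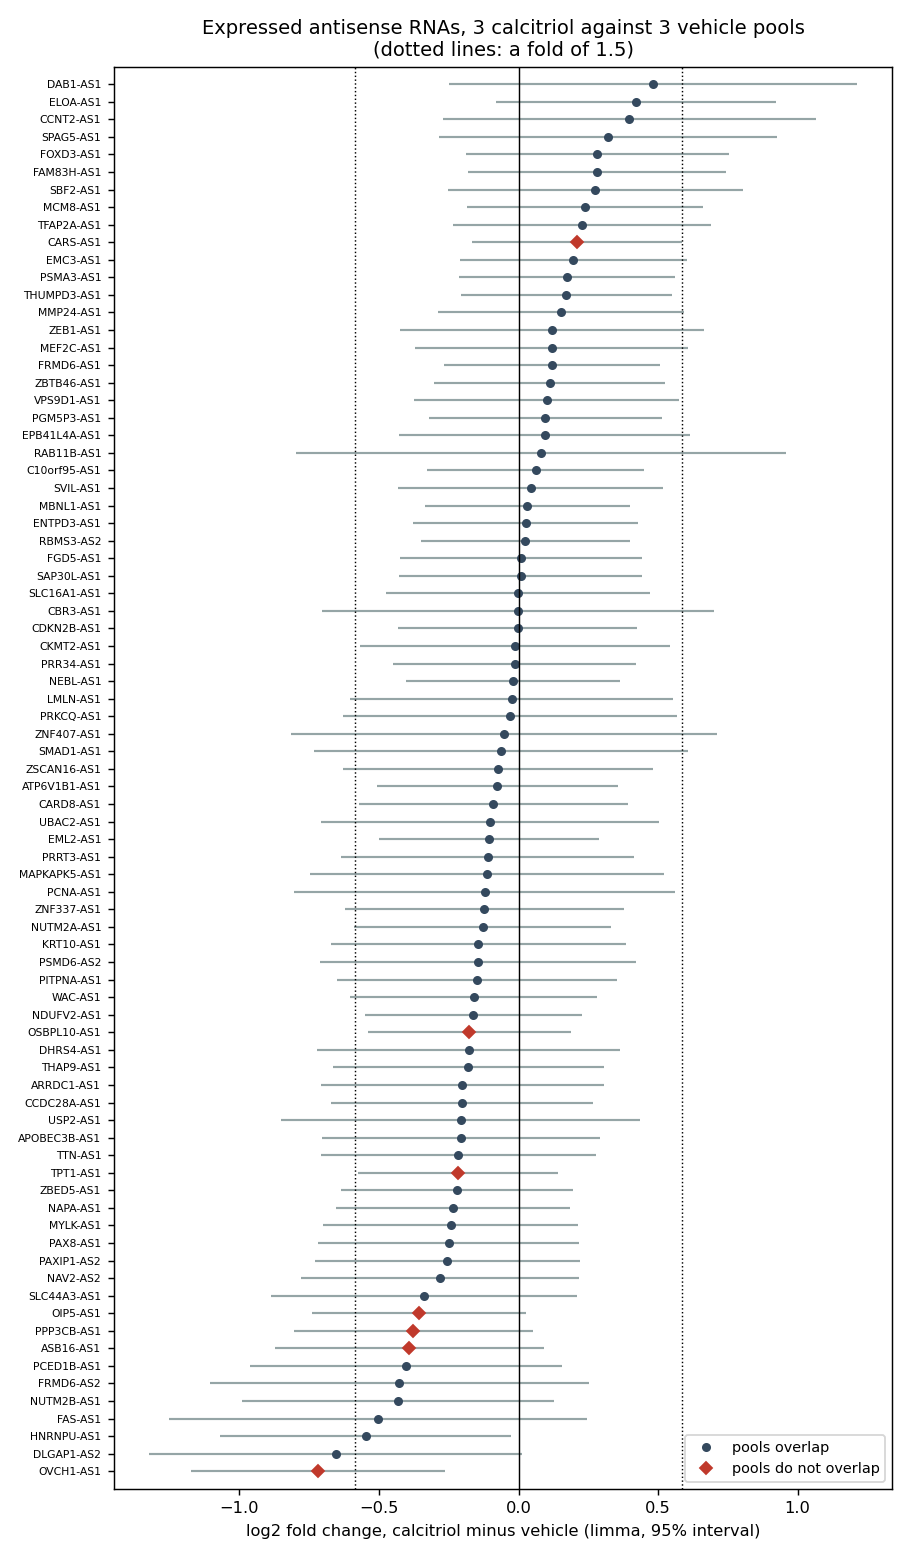
Log2 fold change (x axis, calcitriol minus vehicle, as deposited) of each of the 80 expressed antisense RNAs (y axis), with the 95% interval of limma without adjustment; red diamonds mark the 7 members whose pools did not overlap. OVCH1-AS1 and HNRNPU-AS1, among the 3 lowest points, are the members whose interval leaves out 0; 51 values lie below 0 as deposited, but 41 after quantile normalization or cyclic loess and 10 after centring on the exogenous controls.

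The promoters of the members were looked at because antisense and sense gene often start from one stretch of DNA. RefSeq (GRCh38.p14) gave a promoter window, 250 bases before to 50 after the start, for 53 members, and windows for both genes of a pair for 34. In 9 of these the starts lay head to head, 66 to 425 bases apart (median 175), with the starts facing away from each other in 7 and the 5′ ends overlapping in 2. In 12 pairs one gene lay inside the other, in 12 the tails overlapped and in 1 the genes did not overlap. Head-to-head windows are shown for 4 pairs, because one piece of DNA serves both RNAs and the pools of the antisense RNA are given further on. They are CCNT2 and FOXD3, the head-to-head pairs with the largest difference between antisense and sense, CCDC28A, the pair with the closest starts, and TPT1, whose antisense RNA had pools that did not overlap. Each is written 5′ to 3′ on the strand of the sense gene. Capitals at the left mark bases downstream of the antisense start, capitals at the right those downstream of the sense start, and the lower case between them is the shared stretch.
CCNT2 with CCNT2-AS1, chr2:134918572-134918871, plus strand: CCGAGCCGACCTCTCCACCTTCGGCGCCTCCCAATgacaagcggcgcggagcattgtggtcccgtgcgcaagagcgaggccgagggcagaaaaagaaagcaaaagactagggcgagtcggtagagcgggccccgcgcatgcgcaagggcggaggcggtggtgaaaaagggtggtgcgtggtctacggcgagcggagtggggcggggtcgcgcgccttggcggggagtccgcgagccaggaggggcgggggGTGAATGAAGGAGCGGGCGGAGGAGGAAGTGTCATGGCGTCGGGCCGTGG
FOXD3 with FOXD3-AS1, chr1:63322317-63322616, plus strand: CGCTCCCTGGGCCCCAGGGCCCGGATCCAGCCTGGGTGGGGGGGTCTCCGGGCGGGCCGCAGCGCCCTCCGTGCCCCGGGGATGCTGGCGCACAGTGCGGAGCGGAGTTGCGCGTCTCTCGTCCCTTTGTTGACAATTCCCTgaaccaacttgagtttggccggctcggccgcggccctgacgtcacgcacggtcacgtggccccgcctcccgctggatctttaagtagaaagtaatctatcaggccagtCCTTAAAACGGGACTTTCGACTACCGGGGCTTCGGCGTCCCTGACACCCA
CCDC28A with CCDC28A-AS1, chr6:138773519-138773818, plus strand: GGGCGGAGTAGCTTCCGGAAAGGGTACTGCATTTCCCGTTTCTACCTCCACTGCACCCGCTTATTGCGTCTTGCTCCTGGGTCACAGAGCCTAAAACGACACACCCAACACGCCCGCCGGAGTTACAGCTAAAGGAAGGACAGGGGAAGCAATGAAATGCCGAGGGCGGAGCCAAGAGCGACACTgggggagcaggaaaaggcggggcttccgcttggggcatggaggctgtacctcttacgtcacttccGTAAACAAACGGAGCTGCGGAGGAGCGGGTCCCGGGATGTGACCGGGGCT
TPT1 with TPT1-AS1, chr13:45341134-45341433, minus strand: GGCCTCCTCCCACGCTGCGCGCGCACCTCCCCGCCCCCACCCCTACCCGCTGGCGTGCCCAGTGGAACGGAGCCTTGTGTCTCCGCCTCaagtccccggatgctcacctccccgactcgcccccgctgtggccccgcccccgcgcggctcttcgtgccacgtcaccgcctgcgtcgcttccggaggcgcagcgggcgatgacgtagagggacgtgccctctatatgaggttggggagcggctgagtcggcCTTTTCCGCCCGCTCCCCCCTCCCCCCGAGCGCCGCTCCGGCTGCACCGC
The starts were 216 bases apart in the CCNT2 pair, 109 in the FOXD3 pair, 66 in the CCDC28A pair and 162 in the TPT1 pair.

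Promoter windows of the expressed antisense genes were, in the median, richer in G and C than those of the dimmer ones. No test was made. The median GC content of the 53 windows was 63.3% (quartiles 52.7% and 70.3%), against 55% for 622 antisense genes at or below the level and 58.7% for all 35116 windows of the table. The median count of CpG dinucleotides was 23 in the members, 8.5 in the dimmer antisense genes and 14 in all windows. Half-sites of the vitamin D receptor were searched on either strand as AGGTCA or any of its variants GGGTCA and GGTTCA and AGTTCA. At least 1 occurred in 17 of the 53 windows (32.1%), in 42.4% of the windows of dimmer antisense genes and in 38.6% of all windows. A direct repeat of these half-sites spaced by 3 bases occurred in 0 of the 53, 0 of the 622 and 26 of all windows (0.074%). One member with a half-site was OSBPL10-AS1, shown here because it was among the 10 brightest members and its pools did not overlap. Its window, chr3:31703963-31704262 on the plus strand, holds a half-site, in capitals, that begins 26 bases downstream of the start.
OSBPL10-AS1 promoter: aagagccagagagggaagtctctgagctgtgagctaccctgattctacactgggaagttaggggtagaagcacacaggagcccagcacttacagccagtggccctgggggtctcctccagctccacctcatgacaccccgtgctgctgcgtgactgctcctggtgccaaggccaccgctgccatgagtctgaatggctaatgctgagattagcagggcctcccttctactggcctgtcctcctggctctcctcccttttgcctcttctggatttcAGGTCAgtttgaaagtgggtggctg
A match of letters is a description and not a bound site, and no binding was measured here.

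Signals of the members spanned a wide range. Their mean log2 signals over the 6 arrays lay between 6.33 and 16.37 with a median of 7.28, and 45 also exceeded the 99th percentile of the negative controls (7.22). All 6 arrays were above the level for 61 members. The group means were above the level in both groups for 72, in calcitriol alone for 6 (DAB1-AS1, ELOA-AS1, SPAG5-AS1, SBF2-AS1, MCM8-AS1 and CARS-AS1) and in vehicle alone for 2 (DLGAP1-AS2 and PCED1B-AS1). These 8 met the level only through the group in which they were higher, so their differences are in part set by the choice of members. Just inside the level were CARS-AS1 (6.33), PCED1B-AS1 (6.36) and DAB1-AS1 (6.37), and just outside it TLR8-AS1 (6.32), ZNF561-AS1 (6.31) and ANKRD34C-AS1 (6.29). The suffix was AS1 in 74 members and AS2 in 6. RefSeq listed 77 as long noncoding RNAs. Of the other 3, HNRNPU-AS1 is now an older name within HNRNPU, MMP24-AS1 belongs to a gene renamed MMP24OS, and FAM83H-AS1 to IQANK1, annotated as protein-coding. Chromosome 3 held 11 members, chromosome 10 held 10 and chromosome 1 held 6.

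**Figure D2:**
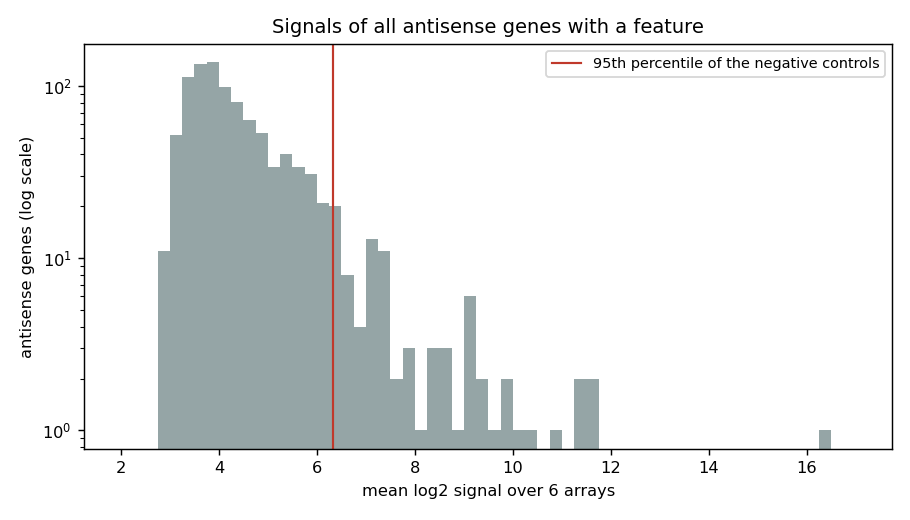
Number of antisense genes (y axis, log scale) by mean log2 signal over the 6 arrays (x axis), for all 989 antisense genes with a feature. The red line is the level of 6.32 that chose the members; 80 genes lie to its right, and RBMS3-AS2 stands alone at 16.37.

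Among the 10 brightest members, no change passed the test and only OSBPL10-AS1 had pools that did not overlap. RBMS3-AS2, antisense to the gene of an RNA-binding protein, had log2 signals of 16.41, 16.30 and 16.43 in the calcitriol pools and 16.24, 16.42 and 16.41 in the vehicle pools, a log2 fold change of 0.02 (95% interval -0.35 to 0.40). FGD5-AS1, an RNA studied in several tumours, had 11.85, 11.65 and 11.54 in the calcitriol pools and 11.67, 11.89 and 11.44 in the vehicle pools, a log2 fold change of 0.01 (-0.42 to 0.44). In both genes the groups overlapped and the interval lay within a fold of 1.5. NUTM2A-AS1 averaged 11.58 over the arrays with a log2 fold change of -0.13. Its relative NUTM2B-AS1 averaged 9.20, with 8.59, 8.91 and 9.46 in the calcitriol pools and 9.46, 9.22 and 9.58 in the vehicle pools, a log2 fold change of -0.43 (standard error 0.24). The loci are copies of each other on chromosome 10, and whether the probes tell them apart was not tested. FAM83H-AS1 had 11.46, 11.51 and 11.39 in the calcitriol pools and 11.17, 11.49 and 10.85 in the vehicle pools, where the third vehicle pool was the low one, a log2 fold change of 0.28. EMC3-AS1, SAP30L-AS1, C10orf95-AS1, ZBTB46-AS1 and SVIL-AS1, with mean signals over the 6 arrays of 9.76 to 10.76, had log2 fold changes of 0.20, 0.01, 0.06, 0.11 and 0.04, all with overlapping pools.

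OSBPL10-AS1 is transcribed within OSBPL10, the gene of a lipid-transfer protein of the oxysterol-binding family. It had 11.12, 11.23 and 11.25 in the calcitriol pools and 11.36, 11.34 and 11.43 in the vehicle pools. All calcitriol pools lay below all vehicle pools, by little. The log2 fold change was -0.18 (standard error 0.16, unadjusted p = 0.298 by limma), and it was -0.04 after quantile normalization, -0.05 after cyclic loess and 0.17 after centring on the exogenous controls. OSBPL10 itself, at a mean of 11.85, had a log2 fold change of -0.22 with overlapping pools.

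OVCH1-AS1, antisense to the gene of ovochymase, a serine protease, was the member with the smallest p. Its log2 signals were 7.29, 7.32 and 7.53 in the calcitriol pools and 8.03, 8.41 and 7.86 in the vehicle pools. All calcitriol pools lay below all vehicle pools, with means of 7.38 ± 0.13 in calcitriol-treated cells and 8.10 ± 0.28 in vehicle-treated cells (SD, n = 3 pools each). The log2 fold change was -0.72 (standard error 0.20, a fold of 1.65), with an unadjusted p of 0.00617 and an adjusted p of 0.915 by limma. In pooled RNA, a lower level in every cell and a loss from some cells cannot be told apart. The value stayed negative under every scaling tried and without any single array, from -0.84 to -0.38. The smallest change, -0.38, came from centring on the exogenous controls (unadjusted p = 0.135 by limma), and without the second vehicle pool, the brightest, it was -0.56, under a fold of 1.5. The sense gene OVCH1 was within the range of the negative controls, with a mean signal of 3.87.

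HNRNPU-AS1 lies at the gene of a nuclear RNA-binding scaffold protein, and RefSeq now lists its name as an older one of HNRNPU. Whether its feature measures an antisense RNA or HNRNPU itself was not tested. The signals of HNRNPU-AS1 were 7.40, 7.46 and 8.14 in the calcitriol pools and 8.12, 8.21 and 8.32 in the vehicle pools. The third calcitriol pool reached the range of the vehicle pools, so the groups overlapped. The log2 fold change was -0.55 (standard error 0.23), with an unadjusted p of 0.0416 and an adjusted p of 0.915 by limma, and it was -0.78 without that pool. The unadjusted p by limma was 0.0784 after quantile normalization, 0.0742 after cyclic loess, 0.0876 with the ordinary variance of the feature and 0.0603 to 0.135 without any other single array. After centring on the exogenous controls the change was -0.21. The HNRNPU feature counted here as the sense gene was bright, at a mean of 17.01, and was at -0.12 on the same log2 scale (standard error 0.18).

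DLGAP1-AS2, at the gene of a postsynaptic scaffold protein, had 6.83, 6.13 and 5.73 in the calcitriol pools and 6.58, 6.92 and 7.15 in the vehicle pools. The first calcitriol pool lay among the vehicle pools, and the other calcitriol pools were under 6.32. The log2 fold change was -0.66 (standard error 0.29, unadjusted p = 0.0535 by limma), and it was -0.95 without the first calcitriol pool and -0.40 without the third. Its unadjusted p by limma was 0.0451 after centring each array on its median, 0.00564 without the first calcitriol pool and 0.0417 without the first vehicle pool, where the change was -0.81. FAS-AS1, which has been linked to the splicing of the death receptor FAS, had 6.14, 6.94 and 6.10 in the calcitriol pools and 6.54, 6.62 and 7.53 in the vehicle pools, with overlap and a log2 fold change of -0.51 (standard error 0.33). Its features disagreed, since the 2 dimmer ones, with means of 4.18 and 4.38, had log2 fold changes of 0.22 and 0.52. The mean of all features gave 0.08. The brightest feature of FAS-AS1 is numbered directly after that of FAS, and the one at 4.38 among features of chromosome 13. RefSeq places FAS-AS1 on the minus strand. By its number the brightest feature lies in the run of plus-strand genes of chromosome 10, such as PPP3CB-AS1. The feature at 4.18 lies in the run of minus-strand genes, such as NUTM2A-AS1. Whether the brightest measures an antisense RNA or FAS itself was not tested. FRMD6-AS2 (-0.43) and PCED1B-AS1 (-0.40) complete the 10 lowest log2 fold changes together with NUTM2B-AS1, ASB16-AS1, PPP3CB-AS1 and OIP5-AS1. In FRMD6-AS2 a single vehicle pool, at 7.55, stood above the others, which were 6.60, 6.29 and 6.34 in calcitriol and 6.43 and 6.54 in vehicle. Leaving out 1 array brought 3 of these RNAs to an unadjusted p under 0.05 by limma at over 1.5-fold. The changes were -0.78 in FAS-AS1 without the second calcitriol pool and -0.67 in NUTM2B-AS1 without the third calcitriol pool. In PCED1B-AS1 the change was -0.61 without the third vehicle pool. For each of the 3, leaving out another array instead gave a smaller change than all arrays did. DLGAP1-AS2 and PCED1B-AS1 were above the level only through their vehicle mean, so their differences are in part set by the choice of members.

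OIP5-AS1, ASB16-AS1, PPP3CB-AS1 and TPT1-AS1 were lower in every calcitriol pool than in any vehicle pool without passing the test. OIP5-AS1 is the human counterpart of Cyrano, an RNA that in mice directs the destruction of a microRNA. It had 9.00, 9.08 and 8.92 in the calcitriol pools and 9.34, 9.23 and 9.50 in the vehicle pools, a log2 fold change of -0.36 (standard error 0.17, unadjusted p = 0.0654 by limma). The pools were separated by a narrow gap, and after centring on the exogenous controls the value was -0.01. PPP3CB-AS1, antisense to the gene of a catalytic subunit of calcineurin, had 7.38, 7.30 and 7.03 in the calcitriol pools and 7.45, 7.82 and 7.57 in the vehicle pools, a log2 fold change of -0.38 (standard error 0.19, unadjusted p = 0.0773 by limma). ASB16-AS1 had 8.20, 8.15 and 7.94 in the calcitriol pools and 8.35, 8.25 and 8.87 in the vehicle pools, a log2 fold change of -0.39 (standard error 0.21, unadjusted p = 0.0996 by limma). In ASB16-AS1 the third vehicle pool was the highest by far, and without it the change was -0.20. After centring on the exogenous controls the change was -0.03 in PPP3CB-AS1 and -0.05 in ASB16-AS1.

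TPT1-AS1, which starts back to back with the gene of the translationally controlled tumour protein, had the tightest pools of these. Its signals were 7.12, 7.13 and 7.06 in the calcitriol pools and 7.31, 7.33 and 7.33 in the vehicle pools, with an SD of 0.04 in calcitriol and 0.01 in vehicle. The log2 fold change was -0.22 (standard error 0.16, unadjusted p = 0.200 by limma with moderated variances). With the ordinary variance of each feature its p was 0.000778 by limma and its adjusted p 0.953, and after centring on the exogenous controls the value was 0.12. TPT1 had no feature of its own among those with a single symbol.

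At the other end, DAB1-AS1, ELOA-AS1 and CCNT2-AS1 had the highest log2 fold changes, and the pools overlapped in each. DAB1-AS1, at the gene of an adaptor of reelin signalling, had 6.02, 6.58 and 7.25 in the calcitriol pools and 6.13, 6.48 and 5.79 in the vehicle pools, a log2 fold change of 0.48 (standard error 0.32, unadjusted p = 0.168 by limma). ELOA-AS1, at the gene of elongin A, a subunit of a transcription elongation factor, had 6.62, 6.80 and 6.52 in the calcitriol pools and 6.63, 6.12 and 5.92 in the vehicle pools, a log2 fold change of 0.42 (standard error 0.22, unadjusted p = 0.0897 by limma). CCNT2-AS1, at the gene of cyclin T2, had 7.14, 7.81 and 6.69 in the calcitriol pools and 6.55, 6.80 and 7.10 in the vehicle pools, a log2 fold change of 0.40 (standard error 0.29, unadjusted p = 0.210 by limma). The first calcitriol pool of DAB1-AS1 and the third of CCNT2-AS1 lay within the range of the vehicle pools, and in ELOA-AS1 the first vehicle pool was as high as the calcitriol pools. SPAG5-AS1 (0.32), FOXD3-AS1 (0.28), FAM83H-AS1 (0.28), SBF2-AS1 (0.28), MCM8-AS1 (0.24), TFAP2A-AS1 (0.23) and CARS-AS1 (0.21) followed. DAB1-AS1, ELOA-AS1, SPAG5-AS1, SBF2-AS1, MCM8-AS1 and CARS-AS1 were above the level only through their calcitriol mean, so their differences are in part set by the choice of members. Leaving out 1 array moved DAB1-AS1, ELOA-AS1 and CCNT2-AS1 past 1.5-fold at an unadjusted p under 0.05 by limma. The values were 0.78 for DAB1-AS1 without the first calcitriol pool, 0.63 for ELOA-AS1 without the first vehicle pool and 0.66 for CCNT2-AS1 without the third calcitriol pool. CCNT2-AS1 was at 0.10 without the second calcitriol pool, and for DAB1-AS1 and ELOA-AS1 other omissions also gave smaller changes than all arrays did. After centring on the exogenous controls, DAB1-AS1 (0.82), ELOA-AS1 (0.76), CCNT2-AS1 (0.74), FOXD3-AS1 (0.62), FAM83H-AS1 (0.62) and SBF2-AS1 (0.62) passed the same threshold, with unadjusted p-values of 0.00607 to 0.0333 by limma and adjusted ones of 0.212 or more. That centring moved the median of all features to 0.34.

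CARS-AS1, at the gene of a tRNA synthetase for cysteine and now called CARS1-AS1, was the only member whose calcitriol pools all lay above the vehicle pools. It had 6.58, 6.33 and 6.40 in the calcitriol pools and 6.21, 6.24 and 6.24 in the vehicle pools, a log2 fold change of 0.21 (standard error 0.16, unadjusted p = 0.237 by limma). It was also the member nearest to the level that chose the members, and only the calcitriol pools exceeded it. After centring on the exogenous controls its log2 fold change was 0.55 (unadjusted p = 0.0246 by limma).

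**Figure D3:**
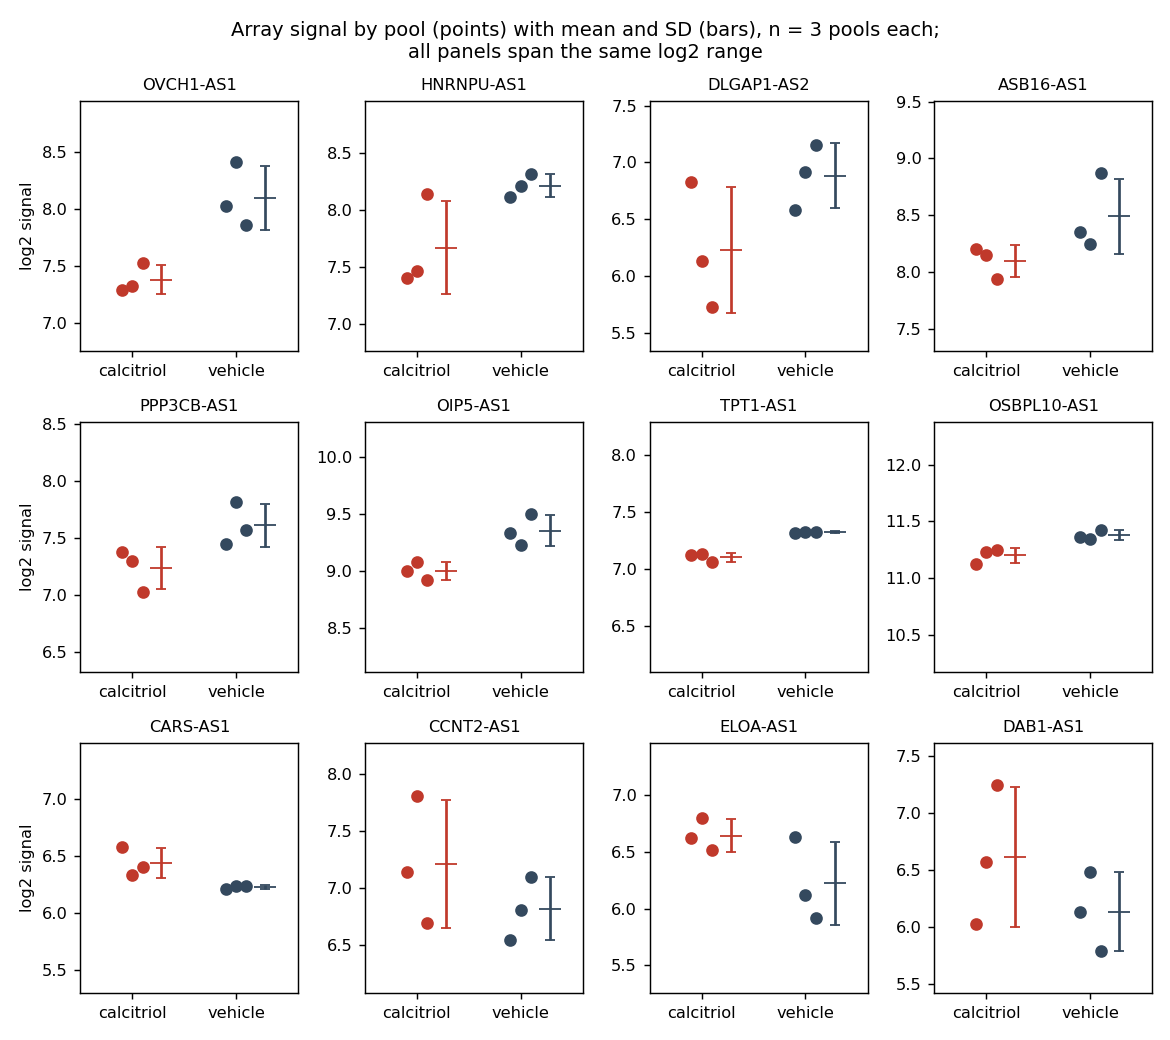
Log2 signal (y axis) of each calcitriol pool (red, left) and each vehicle pool (blue, right) for 12 antisense RNAs, with mean and SD (n = 3 pools each); the panels have different origins but the same span. All calcitriol points lie below all vehicle points for OVCH1-AS1, ASB16-AS1, PPP3CB-AS1, OIP5-AS1, TPT1-AS1 and OSBPL10-AS1 and above them for CARS-AS1, and the points overlap in the other panels.

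Antisense RNAs that have been studied in other cells were considered as a list. The list was drawn up with earlier results of these data known, so its shares are a description. Of 40 listed, 39 had a feature and 14 were members. Over the 39, the pools did not overlap for 5 (12.8%, against 10.7% of all features). At an unadjusted p under 0.05 by limma 1 of the 39 was called (2.56%, against 5.41% of all features). It was LOXL1-AS1, not a member, with a mean signal of 3.97, below the level. Its log2 fold change was -0.63, with an unadjusted p of 0.0173 and an adjusted p of 0.915 by limma. None of the 14 had an unadjusted p under 0.05 by limma, 3 had pools that did not overlap (OIP5-AS1, ASB16-AS1 and TPT1-AS1, all lower, 21.4% against 12.5% of features above the level), and their median log2 fold change was -0.01 against -0.08 for all members and -0.00 for all features. The 95% intervals of all 14 lay within a fold of 2. CDKN2B-AS1, also known as ANRIL, which binds Polycomb proteins at the locus of the cell cycle inhibitors CDKN2A and CDKN2B, had 7.62, 7.49 and 7.33 in the calcitriol pools and 7.70, 7.26 and 7.49 in the vehicle pools. Its log2 fold change was -0.00 (95% interval -0.43 to 0.43). PSMA3-AS1 had 9.64, 9.67 and 9.48 in the calcitriol pools and 9.54, 9.44 and 9.28 in the vehicle pools, a log2 fold change of 0.17. ZEB1-AS1 had 7.32, 7.50 and 7.12 in the calcitriol pools and 7.41, 6.71 and 7.45 in the vehicle pools, where the second vehicle pool was the low one, a log2 fold change of 0.12. Other list members with overlapping pools were THAP9-AS1 (-0.18), VPS9D1-AS1 (0.10), MAPKAPK5-AS1 (-0.11), TTN-AS1 (-0.22), MMP24-AS1 (0.15), CKMT2-AS1 (-0.01) and SBF2-AS1 (0.28), besides FGD5-AS1. MAPKAPK5-AS1 had the widest interval of the list, -0.75 to 0.52, with 1 high pool in each group (7.98 in calcitriol and 7.95 in vehicle).

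The remaining members had log2 fold changes between -0.34 (SLC44A3-AS1) and 0.17 (THUMPD3-AS1). EPB41L4A-AS1, host of a small nucleolar RNA, had 8.98, 9.71 and 9.71 in the calcitriol pools and 9.40, 9.40 and 9.32 in the vehicle pools, where the spread was within calcitriol. RAB11B-AS1 was the least precise member, with 7.06, 7.29 and 6.05 in the calcitriol pools and 7.30, 6.12 and 6.73 in the vehicle pools, a log2 fold change of 0.08 and an interval of -0.80 to 0.96. EML2-AS1 had the closest calcitriol pools, 7.83, 7.82 and 7.84, against 7.75, 7.94 and 8.12 in the vehicle pools, and a log2 fold change of -0.11.

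The sense genes were set beside the antisense RNAs to ask whether both strands of a locus moved together. A feature of the sense gene was found for 75 members and covered 74 genes, since FRMD6 has 2 members. The sense genes TPT1, MAPKAPK5 and EML2 were on features with several symbols, and SLC16A1 and PGM5P3 had none. Of the 74 genes, 48 were above the level and 26 were not. No sense gene passed an adjusted p of 0.05. By limma 6 were lower and 0 higher at an unadjusted p under 0.05 (8.11%), where the share over all features was 2.83% lower and 2.58% higher. Most sense genes code for proteins, and of all protein-coding genes 6.44% passed in either direction, or 9.08% of those above the level. The pools did not overlap for 10, all lower (13.5%), where 5.55% of all features were lower and 5.16% higher in this way and 13.7% of protein-coding genes did not overlap. The median log2 fold change of the sense genes was -0.12 and 53 (71.6%) were negative, against -0.09 and 66.9% for all protein-coding genes. The sense genes were thus near the protein-coding genes in each of these measures. After quantile normalization or cyclic loess 46 of the 74 were negative, and after centring on the exogenous controls 17 were.

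With a 1.5-fold change and an unadjusted p under 0.05 by limma, 4 of the 74 sense genes were lower and 0 higher, against 1.56% lower and 1.43% higher among all features. Of 17579 protein-coding genes, 505 were lower and 62 higher in this way, and of the 8225 above the level 355 were lower and 18 higher. Of the 4 sense genes, APOBEC3B and FAS were above the level. APOBEC3B, a DNA cytidine deaminase, had 10.29, 10.46 and 10.57 in the calcitriol pools and 11.18, 10.84 and 11.09 in the vehicle pools, a log2 fold change of -0.60 (standard error 0.18, unadjusted p = 0.00972 and adjusted p = 0.915 by limma). Its antisense RNA had 6.56, 6.55 and 6.25 in the calcitriol pools and 7.05, 6.42 and 6.50 in the vehicle pools, a log2 fold change of -0.21, with overlap. FAS had 8.33, 8.66 and 8.14 in the calcitriol pools and 8.80, 9.11 and 9.00 in the vehicle pools, a log2 fold change of -0.59 (standard error 0.20, unadjusted p = 0.0158 and adjusted p = 0.915 by limma), beside -0.51 for FAS-AS1. In both genes the pools did not overlap. By its number the feature behind the FAS-AS1 value lies in the run of plus-strand genes, while RefSeq places FAS-AS1 on the minus strand. Whether that feature measures an antisense RNA or FAS itself was not tested. The 2 dimmer features of FAS-AS1 were at 0.22 and 0.52. SLC44A3 (-0.72) and ZEB1 (-0.69), a transcription factor of the mesenchymal state, passed the same threshold at mean signals of 5.77 and 4.68, below the level. MYLK (-0.46), the myosin light chain kinase, and PCED1B (-0.45) passed by p alone, with MYLK-AS1 at -0.24 and PCED1B-AS1 at -0.40.

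Antisense and sense changes were hardly correlated across pairs. Both were negative in 31 pairs and both positive in 5, the antisense RNA was positive and the sense gene negative in 23, and the reverse held in 16. Across the 75 pairs Pearson's r of the log2 fold changes was -0.11 and Spearman's rho -0.11, and both were 0.08 over the 49 pairs whose sense gene was above the level. The points share the same 6 arrays and are not independent, so this is a description. Over all 910 antisense and sense pairs on the array r was 0.04.

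The difference within a pair, antisense minus sense on each array, was tested by limma over all 910 pairs. It had an unadjusted p under 0.05 in 6 of the 75 pairs (4 higher and 2 lower), where the background was 7.25% of all pairs, 6.04% higher and 1.21% lower. No pair passed after adjustment, the smallest adjusted p being 0.571. The pools of the difference did not overlap for 11 of the 75 pairs, with a background of 13.3%. The median difference was 0.09 in the members' pairs and 0.13 in all pairs. Because the difference is taken on each array, centring on the exogenous controls does not move it.

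**Figure D4:**
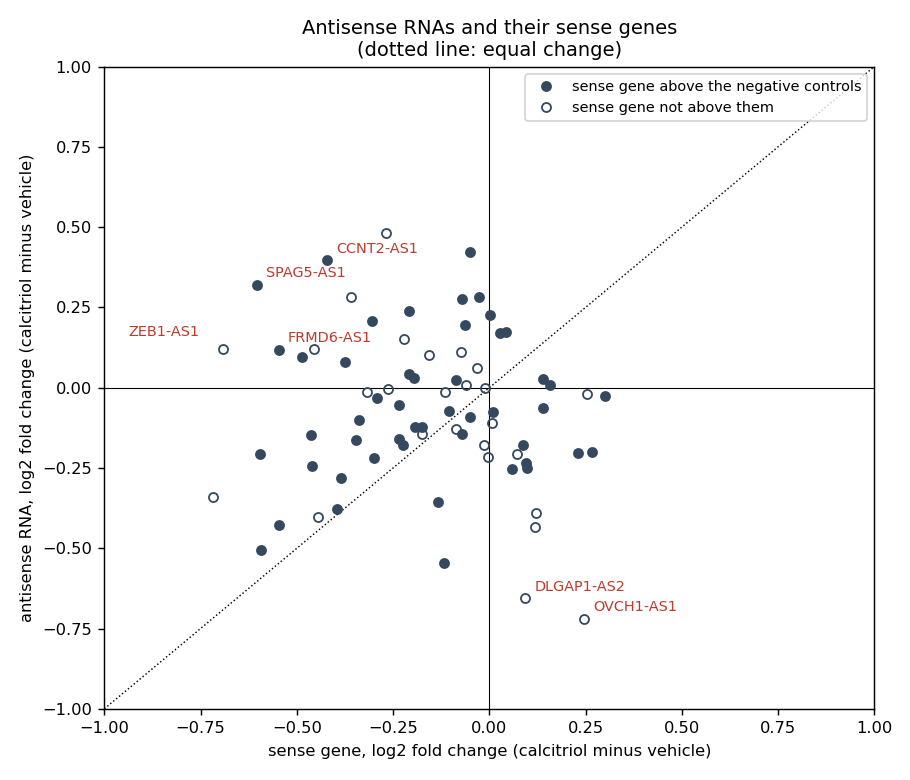
Log2 fold change of each expressed antisense RNA (y axis, calcitriol minus vehicle) against that of its sense gene (x axis) for 75 pairs; filled points have a sense gene above the negative controls (49 pairs) and open points do not (26 pairs). The dotted line is an equal change, points form no trend along it (r = -0.11), and red names mark the 6 pairs whose difference had an unadjusted p under 0.05.

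Of the 6 pairs, 3 had the mean of both RNAs over the arrays above the level, and in these the antisense RNA stood higher than the sense gene relative to vehicle. That was also the more frequent direction over all pairs, 6.04% higher and 1.21% lower at an unadjusted p under 0.05 by limma. CCNT2, the gene of a cyclin of the elongation kinase complex P-TEFb, had 11.65, 11.54 and 11.41 in the calcitriol pools and 11.69, 12.01 and 12.16 in the vehicle pools, a log2 fold change of -0.42. The difference between CCNT2-AS1 and CCNT2 was 0.82 (standard error 0.30, unadjusted p = 0.0157 by limma) without overlap of the pools, and it was 0.53 (unadjusted p = 0.0880) without the second calcitriol pool, in which CCNT2-AS1 was highest. SPAG5, the gene of the mitotic spindle protein astrin, had 5.88, 6.77 and 6.06 in the calcitriol pools and 6.80, 7.17 and 6.56 in the vehicle pools, a log2 fold change of -0.60, and its antisense RNA one of 0.32. That difference was 0.92 (standard error 0.38, unadjusted p = 0.0283 by limma), and its pools overlapped. SPAG5-AS1 was above the level only through its calcitriol mean, 6.56 against 6.24 in vehicle, so this difference is in part set by the choice of members. FRMD6, a protein of the Hippo pathway, had 11.31, 12.19 and 11.80 in the calcitriol pools and 12.05, 12.45 and 12.44 in the vehicle pools, a log2 fold change of -0.55. FRMD6-AS1 had 7.27, 7.35 and 7.22 in the calcitriol pools and 7.33, 7.13 and 7.03 in the vehicle pools. The difference was 0.67 (standard error 0.30, unadjusted p = 0.0456 by limma), and its pools overlapped. Without 1 array it ran from 0.44 (unadjusted p = 0.181 by limma, first calcitriol pool out) to 0.88 (unadjusted p = 0.0183 by limma, first vehicle pool out). The unadjusted p by limma was 0.0590 after quantile normalization and 0.106 with the ordinary variance. The other antisense RNA of FRMD6, FRMD6-AS2, was at -0.43, with a difference from FRMD6 of 0.12.

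In the other 3 pairs the sense gene was below the level, so the difference set a measured RNA against a signal in the range of the negative controls. The difference was -0.97 for OVCH1-AS1 (standard error 0.28, unadjusted p = 0.00355 by limma), -0.75 for DLGAP1-AS2 (standard error 0.27, unadjusted p = 0.0143 by limma) and 0.81 for ZEB1-AS1 (standard error 0.30, unadjusted p = 0.0173 by limma). OVCH1 had 3.64, 4.02 and 4.33 in the calcitriol pools and 3.34, 4.17 and 3.73 in the vehicle pools, DLGAP1 averaged 4.63 in calcitriol and 4.54 in vehicle, and ZEB1 averaged 4.34 in calcitriol and 5.03 in vehicle. DLGAP1-AS2 itself was above the level only through its vehicle mean. The OVCH1-AS1 difference was the only one of the 6 to keep an unadjusted p under 0.05 in each refit that could move it. These refits were quantile normalization, cyclic loess, the variance models, the replicate block and leaving out each array. Centring each array on its median or on the exogenous controls cannot move a difference taken on each array. Other differences among the 5 largest each way were 0.75 for DAB1-AS1, -0.55 for NUTM2B-AS1, -0.51 for ASB16-AS1 and -0.47 for ARRDC1-AS1, with unadjusted p-values of 0.0661, 0.0665, 0.108 and 0.100 by limma. The sense genes DAB1, NUTM2B and ASB16 were below the level, with mean signals of 3.87, 3.54 and 3.38. In the ARRDC1 pair, at the gene of an arrestin-domain protein, the sense gene was bright, with a mean of 11.19 and a log2 fold change of 0.27, and the antisense RNA was at -0.20.

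Median differences are given by arrangement of the genes, with no test. The median difference was 0.08 in the 8 head-to-head pairs with a sense feature, 0.15 in the 12 pairs with one gene inside the other, 0.14 in the 12 with overlapping tails and 0.08 in the 42 without a class, and the difference was -0.04 in the 1 pair of genes that do not overlap. Head to head, the signs of the changes in both genes were the same in 4 of 8 pairs. Of the pairs whose shared promoters are printed above, CCNT2, FOXD3 and CCDC28A had opposite signs, and TPT1 has no sense value. FOXD3-AS1 had 6.87, 6.97 and 6.67 in the calcitriol pools and 6.80, 6.21 and 6.66 in the vehicle pools, while FOXD3, a transcription factor of the neural crest, was near the bottom of the scale at 3.06, 3.16 and 3.26 in calcitriol and 3.40, 3.81 and 3.35 in vehicle. The difference in that pair was 0.64 (unadjusted p = 0.0577 by limma). CCDC28A-AS1 had 8.41, 8.50 and 8.27 in the calcitriol pools and 8.75, 8.23 and 8.80 in the vehicle pools, and CCDC28A 7.45, 6.84 and 7.33 in calcitriol and 7.30, 6.74 and 6.89 in vehicle, a difference of -0.43 (unadjusted p = 0.158 by limma). SAP30L (0.16 beside 0.01 for its antisense RNA), WAC (-0.23 beside -0.16) and ZBED5 (-0.30 beside -0.22) had the same sign as their antisense RNA, as did THAP9 (-0.01 beside -0.18), whereas RAB11B (-0.38 beside 0.08) had not.

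**Figure D5:**
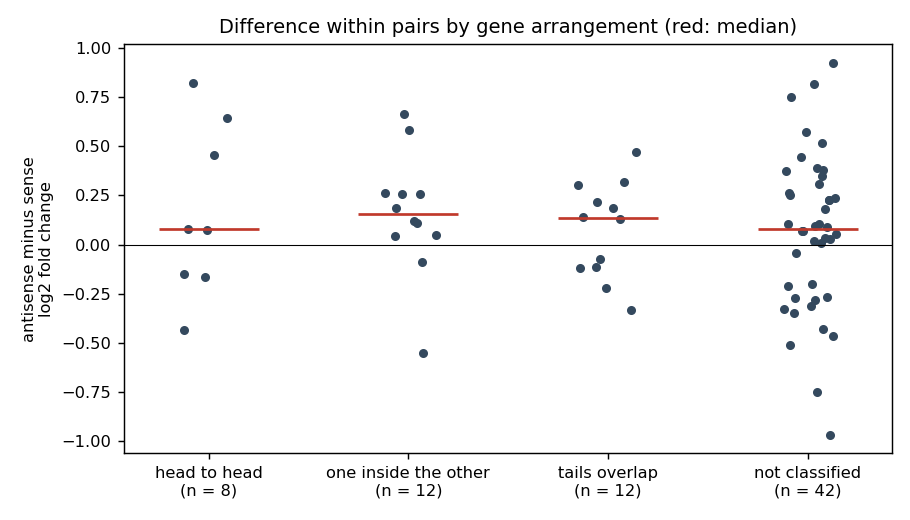
Difference between the log2 fold changes of antisense RNA and sense gene (y axis) for 74 pairs by arrangement of the genes in RefSeq (x axis), each point being a pair, spread sideways for legibility, and the red line the median. The medians of the 4 classes lie between 0.08 and 0.15, and the points of the classes overlap; the single pair of genes that do not overlap is left out.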

How the data were processed

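The deposited values are log2 signals of 138745 features on 6 Clariom D arrays, which the authors background-corrected and normalized with the software Transcriptome Analysis Console. Which algorithm it ran, and on which annotation build, is not given in the sources used here. Signals entered the tests unchanged. Features took their gene from the platform annotation: 36176 had 1 symbol, 1119 several and 101450 none. Antisense genes on features with several symbols were not used. Members, gene lists and tests were chosen with earlier results of these data known.

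The comparison of calcitriol with vehicle was a two-sided test in limma (version 3.58.1, under R 4.3.3 with the package data.table, version 1.17.8), with moderated variances (prior degrees of freedom 4.51) and Benjamini-Hochberg adjustment over all features. The sense gene is the symbol left after the suffix is removed. Pair differences were fitted over all 910 pairs. Intervals are 95% intervals without adjustment. No overlap means that every pool of one group lay beyond every pool of the other. The steps were tested on simulated data.

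The text names the 10 highest, 10 lowest and 10 brightest members, those at the level's edge, those with a p under 0.05 and no overlap, those with discordant features, the 5 largest pair differences each way, the listed antisense RNAs and the sense genes of these or past the threshold, of which not all are given with values. The other members named were chosen after their values were seen. Promoters and gene classes came from RefSeq (GRCh38.p14), to which all 80 members were matched by gene identifier, symbol or older symbol. Alternatives were 4 scalings, 2 variance models, a replicate block, other levels, thresholds and features, and leaving out each array. The number of arrays, 3 a group, limits the precision. The qPCR, western blot, proliferation and migration experiments were not analysed here.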

Additional observations from a re-analysis of the deposited data

How the results depend on the processing

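No member passed the adjusted threshold under any alternative, the smallest adjusted p being 0.212 with each array centred on the exogenous controls. That centring had the largest effect of the scalings and moved the median of all features to 0.34. With a 1.5-fold change and an unadjusted p under 0.05 by limma asked for, 6 antisense RNAs were then higher and 0 lower. By the same measure 3 sense genes were higher and 0 lower, and 13 members had that p at any fold. Of the 6, DAB1-AS1, ELOA-AS1 and SBF2-AS1 were above the level only through their calcitriol mean. The share of all features past these thresholds was not counted under this centring. As deposited, 1 antisense RNA and 4 sense genes were lower and none was higher. The count of lower antisense RNAs was 2 with each array centred on its median, 2 by fold alone and 2 by p alone. The count of lower sense genes was 2 after quantile normalization, 2 after cyclic loess and 2 when only features above the level were tested, since dim sense genes then drop out. The count of pairs with a difference, 6, was 3 with the level at the 99th percentile of the negative controls, where fewer pairs remain.

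Leaving out 1 array at a time gave 0 to 3 lower and 0 to 1 higher antisense RNAs, with 0 lower without the second vehicle pool and 3 without the third calcitriol pool. It gave 1 to 6 lower and 0 higher sense genes, with 1 without the third calcitriol pool, and 3 to 7 pairs, with 3 without the same pool. Shares over all features were not counted with an array left out. Of the values of 41 members under the alternatives, 569 kept their call or moved by less than the spread between pools, 28 moved by more, 16 gained and 2 lost a call. The 2 lost calls are those of OVCH1-AS1 given above. Only OVCH1-AS1 was called as deposited, and it kept its sign. Turned signs of members without a call were not counted among these. Of the 80 members, 51 were negative as deposited and 10 after centring on the exogenous controls. The cause of these shifts was not tested.

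The pool numbers do not pair the arrays by any label. Deviations of same-numbered pools from their group means correlated at 0.02, 0.03 and 0.04 over all features and at 0.05, 0.15 and 0.13 over those above the level, where pools of different numbers gave -0.14 to 0.01, and each array correlated best with its own number, a hint from the data only. With the pool number as a block, 1 antisense RNA was lower and 0 higher, the smallest adjusted p was 0.876 for members and 0.402 for pairs, and 7 pairs had a difference, which changed no call of the members.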

Other observations

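Noncoding genes that are named after a neighbour in other ways did not pass the test either. Counted were symbols that end in -AS without a digit or with 2 digits, or in -DT (a transcript that diverges from a promoter). Symbols that end in -OT (an overlapping transcript) or in -IT and digits (a transcript within an intron) were counted with them. Of these 217 genes, 28 were above the level. Of these, 2 were lower and 0 higher at an unadjusted p under 0.05 by limma (7.14%, against 6.6% of features above the level), 0 passed the adjusted threshold, and the median log2 fold change was 0.06, against -0.09 for features above the level. RUNX1-IT1, within the gene of a blood and epithelial transcription factor, had 7.44, 7.61 and 7.22 in the calcitriol pools and 7.79, 8.11 and 7.92 in the vehicle pools, a log2 fold change of -0.52 (unadjusted p = 0.0226 by limma). TMEM161B-DT had 6.49, 6.76 and 6.50 in the calcitriol pools and 7.06, 7.29 and 6.80 in the vehicle pools, a log2 fold change of -0.47 (unadjusted p = 0.0413 by limma). Both, as the only ones of the 28 (7.14%, against 12.5% of features above the level), had pools that did not overlap and an adjusted p of 0.915. HOXA10-AS, at a homeobox gene of the female reproductive tract, had 10.91, 11.47 and 10.79 in the calcitriol pools and 11.73, 12.20 and 11.04 in the vehicle pools, a log2 fold change of -0.60 (unadjusted p = 0.0906 by limma), with overlap.

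Among the 909 antisense genes at or below the level, 26 had an unadjusted p under 0.05 by limma, 16 of them higher and 10 lower (2.86%, against 5.41% of all features), and none passed the adjustment. NNT-AS1, on the list of studied RNAs and just below the level, had 6.04, 6.28 and 5.90 in the calcitriol pools and 6.44, 6.59 and 6.32 in the vehicle pools.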
